A study of Drosophila melanogaster with 9 samples.

Results

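The adenosine deaminase growth factor genes of *Drosophila melanogaster* encode a family of secreted proteins named for turning extracellular adenosine into inosine. They are related to the human enzyme ADA2, and in flies they are known for limiting how much adenosine reaches the adenosine receptor, for example around blood cells and in infected larvae. The set described here holds the 6 genes *Adgf-A*, *Adgf-A2*, *Adgf-B*, *Adgf-C*, *Adgf-D* and *Adgf-E*, together with *Ada*, the fly relative of the classical intracellular adenosine deaminase, and *AdoR*, the receptor for extracellular adenosine, which signals through a stimulatory G protein and cAMP. Its members were found by gene name in the annotation of the array: each of the 8 genes had 1 probe set with a single gene symbol, 8 of 18952 probe sets (11981 genes with a probe set of their own). *Adgf-E* was chosen by its low transcript level on these knockdown arrays, so its differences between the knockdown and the controls are given as a description without a test. The others were taken in by name, *AdoR* as the receptor gene and the rest as relatives of *Adgf-E*.

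The arrays (Affymetrix Drosophila Genome 2.0) measured RNA of whole testes from males 0 to 2 days old, kept at 30 °C, with 3 arrays per genotype, each from its own pool of 30 animals by the sample labels. The comparison asks which transcripts depend on tBRD-2, a bromodomain protein of the BET family found in primary spermatocytes. Knockdown males (*bam*≫*tbrd-2RNAi*, labelled bam/y;+/+;bam/tbrd-2RNAi) carried the hairpin construct *tbrd-2RNAi* in 1 copy and the driver *bam*-Gal4 in 2, of which 1 lies on chromosome X and the other on III. Control males had either the 2 copies of *bam*-Gal4 and no hairpin (bam/y;+/+;bam/Sb) or 1 undriven copy of *tbrd-2RNAi* (tbrd-2RNAi/Sb). The *bam* promoter is active in dividing germ cells, so the driver acts in the germline, while the RNA came from all cells of the dissected testis. Both control labels show a homologue marked with *Sb* that the knockdown label does not show.

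All values are log2 expression values after RMA, in which a step of 1 is a doubling. They ranged from 2.5 to 14.53, with array medians of 5.86 to 5.96 and correlations of 0.988 to 0.997 between arrays of a genotype. The targeted transcript *tbrd-2* lay at 7.82 to 8.06 on the knockdown arrays and at 10.19 to 10.73 on the controls. Of the spermatocyte and spermatid markers, 17 of 17 were measured, with array means of 11.08 to 11.26, so the germ cells that the tissue label implies were present. Single markers differed within that mean. Named after their values were seen, *sa* was higher in the knockdown (0.61, adjusted p = 0.00267 against *bam*-Gal4, and 0.97, adjusted p = 2.43e-04 against undriven), and *can* was lower against *bam*-Gal4 (−0.37, adjusted p = 0.0127). Both encode testis-specific TBP-associated factors of spermatocytes. Markers of hemocytes, cells known to make *Adgf-A*, were measured for 11 of 11 genes with array means of 5.73 to 5.92 and ran from 3.5 (*eater*) to 8.77 (*crq*) over all arrays. Named after their values were seen, *Hml* was higher against *bam*-Gal4 (0.54, adjusted p = 0.00837) and *srp*, a GATA factor also used by other tissues, was lower against both controls (−0.75, adjusted p = 4.73e-04, and −0.40, adjusted p = 0.0125). The part of hemocytes in the results was not tested. The markers of accessory gland and ejaculatory duct (14 of 15 measured) varied most, with array means of 9.92 to 11.59 in the knockdown, 8.05 to 11.56 in *bam*-Gal4 and 9.14 to 10.09 in undriven testes. Gut enzyme transcripts (9 of 13 measured) reached means of 7.57 on knockdown replicate 3 and 7.2 on undriven replicate 3, against 5.39 to 6.01 elsewhere. A further fit therefore left out knockdown replicate 3, *bam*-Gal4 replicate 2 and undriven replicate 3. It was used for the differences of members, neighbouring genes and genes of adenosine and purine pathways, not for the markers or the profile comparison. Whether replicates came from separate crosses is not given, so p-values measure the spread between these pools.

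*Adgf-E*, on chromosome arm 2R, had by far the lowest knockdown values of the family relative to the controls. Its level was 8.06, 7.91 and 7.90 on the knockdown arrays, 10.13, 9.92 and 9.96 on the *bam*-Gal4 arrays, and 9.99, 9.97 and 9.72 on the undriven arrays. The knockdown arrays thus lay together and well apart from all 6 controls, which overlapped each other. The genotype means were 7.96 ± 0.09, 10.00 ± 0.11 and 9.89 ± 0.15 (SD, n = 3 each), differences of −2.05 against *bam*-Gal4 and −1.94 against undriven (SE 0.09). In linear terms the level in control testes was 4.13- and 3.83-fold higher. The closest pair of arrays was separated by 1.86 against *bam*-Gal4 and by 1.66 against undriven, on the arrays that chose the gene. The difference between the controls, which did not choose the gene, was 0.11 (95% interval −0.10 to 0.32, adjusted p = 0.758). In RNA from whole testes, fewer cells that express a gene and less RNA per cell cannot be told apart, here and for every gene that follows.

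**Figure D1:**
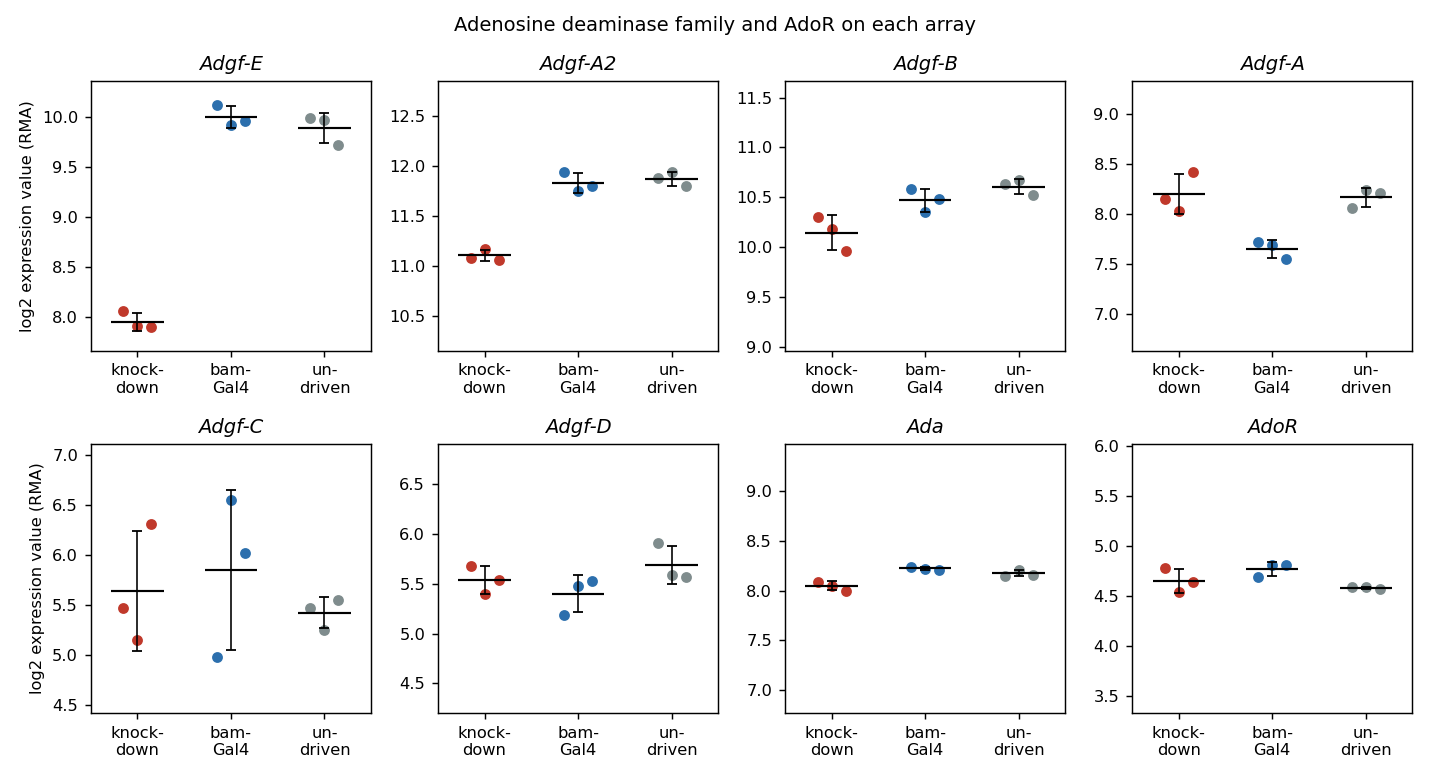
Log2 expression value (y axis, a range of equal length in every panel) of each gene on the 9 arrays, by genotype (x axis). Points are arrays, horizontal lines are means of 3 arrays and bars are SD. The 3 knockdown points of *Adgf-E* lie between 7.90 and 8.06, all below the lowest control at 9.72, and those of *Adgf-A2* lie below all controls by a smaller step.

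*Adgf-A2*, a growth factor relative on 3L, was the only tested member that passed as lower than both controls by adjusted p in all 17 alternatives. Knockdown testes gave 11.08, 11.17 and 11.06, *bam*-Gal4 testes 11.94, 11.75 and 11.80, and undriven testes 11.88, 11.94 and 11.80. The knockdown arrays did not reach the control range, and the controls shared 1 range. The difference was −0.73 against *bam*-Gal4 (SE 0.07, adjusted p = 2.05e-04) and −0.77 against undriven (SE 0.07, adjusted p = 1.55e-04). Control testes thus had 1.65- and 1.71-fold higher levels. In those alternatives adjusted p reached at most 0.00515 and 0.00446. They did not reach the log2 difference of 1 that the study set as its fold limit. The controls differed by −0.04 (95% interval −0.20 to 0.12, adjusted p = 0.891).

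*Adgf-B*, the gene next to *Adgf-A* on 3L, was also lower in the knockdown, by a smaller step. Its values were 10.30, 10.18 and 9.96 in the knockdown, 10.58, 10.35 and 10.48 in *bam*-Gal4, and 10.63, 10.67 and 10.52 in undriven testes. Knockdown replicate 1 came within 0.05 of the lowest *bam*-Gal4 array, and replicate 3 was the lowest of all. The difference was −0.46 against undriven (SE 0.10, adjusted p = 0.0107), which passed in all 17 alternatives, and −0.32 against *bam*-Gal4 (SE 0.10, adjusted p = 0.0487). The latter missed the threshold in 9 alternatives, with adjusted p from 0.0591 to 0.137: with the 6 arrays of the comparison alone (0.0851), without the 3 arrays high in other tissues (0.0943), and without knockdown replicate 2 or 3, *bam*-Gal4 replicate 1 or 3, or any single undriven replicate.

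*Adgf-A*, the member whose loss is known to raise extracellular adenosine in larvae, separated the controls rather than the knockdown. The knockdown arrays read 8.15, 8.03 and 8.42, the *bam*-Gal4 arrays 7.72, 7.69 and 7.55, and the undriven arrays 8.06, 8.24 and 8.21. Knockdown and undriven values overlapped, and both lay above every *bam*-Gal4 value. *Adgf-A* was higher in the knockdown than in *bam*-Gal4 by 0.55 (SE 0.10, 1.46-fold, adjusted p = 0.00602), in all 17 alternatives too. Against undriven the difference was 0.03 (95% interval −0.20 to 0.27, adjusted p = 0.871). Between the controls it was −0.52 (SE 0.10, adjusted p = 0.0391), undriven testes holding 1.43 times the *bam*-Gal4 level. That call was lost in 9 alternatives, with adjusted p of 0.0629 to 0.165, among them each fit without a *bam*-Gal4 or an undriven array, without knockdown replicate 1 (0.0681) and without the 3 arrays high in other tissues (0.117). A genotype effect of the driver line and of the hairpin line cannot be told apart here.

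*Adgf-A2* lies within the annotated span of *Adgf-A*, and no other gene of the annotation starts between *Adgf-B*, *Adgf-A* and *Adgf-A2*. The 3 adjacent genes did not share a pattern: relative to the mean of the 6 controls the knockdown stood at −0.75 for *Adgf-A2*, −0.39 for *Adgf-B* and 0.29 for *Adgf-A*. For *Adgf-A* the control arrays themselves reached from −0.36 to 0.33 on that scale. Which shared or separate exons the probes of *Adgf-A* and *Adgf-A2* match was not examined.

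*Adgf-C* and *Adgf-D*, next to each other on 3R, gave low values with no difference past the threshold. *Adgf-C* was the least reproducible member: 5.47, 5.15 and 6.31 in the knockdown, 4.98, 6.55 and 6.02 in *bam*-Gal4, and 5.47, 5.25 and 5.55 in undriven testes. All 3 genotypes overlapped, and the knockdown differed by −0.21 from *bam*-Gal4 (95% interval −1.08 to 0.67, adjusted p = 0.764) and by 0.22 from undriven (−0.65 to 1.09, adjusted p = 0.735). The arrays highest in *Adgf-C*, knockdown replicate 3 and *bam*-Gal4 replicate 2, were also the highest of their genotype in the accessory gland markers, at means of 11.59 and 11.56. In undriven testes replicate 3 was highest in *Adgf-C* and replicate 1 in those markers (10.09). The part of accessory gland tissue in the *Adgf-C* values was not tested.

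*Adgf-D*, which encodes an active secreted deaminase, read 5.68, 5.40 and 5.54 in the knockdown, 5.19, 5.48 and 5.53 in *bam*-Gal4, and 5.91, 5.59 and 5.57 in undriven testes. The knockdown overlapped both controls, and the controls missed each other by 0.04. Its differences were 0.14 against *bam*-Gal4 (95% interval −0.14 to 0.42, adjusted p = 0.498) and −0.15 against undriven (−0.43 to 0.13, adjusted p = 0.446). On the scale of the array values, those intervals do not reach the −0.73 and −0.77 of *Adgf-A2*. *Adgf-D* gave low values (mean 5.54) and *Adgf-A2* high ones (11.6). Whether the probe set of *Adgf-D* could show such a step was not tested.

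*Ada* had the smallest spread within genotypes of the 8 genes (pooled SD 0.03). Its values were 8.09, 8.05 and 8.0 in the knockdown, 8.24, 8.22 and 8.21 in *bam*-Gal4, and 8.15, 8.21 and 8.16 in undriven testes. Every knockdown array lay under every control, by 0.12 and 0.06 at the closest. The differences of −0.18 against *bam*-Gal4 (95% interval −0.30 to −0.05, adjusted p = 0.0535) and −0.13 against undriven (−0.25 to −0.003, adjusted p = 0.147) did not pass. Against *bam*-Gal4 the value passed with renewed quantile normalization (−0.24, adjusted p = 0.0147), with median centring (−0.22, adjusted p = 0.0374), with dim probe sets left out (adjusted p = 0.0283) and with array weights (adjusted p = 0.0307). Against undriven it passed with renewed quantile normalization (−0.19, adjusted p = 0.0393).

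*AdoR*, the receptor gene, showed no difference past the threshold. The knockdown arrays gave 4.78, 4.54 and 4.64, the *bam*-Gal4 arrays 4.69, 4.81 and 4.81, and the undriven arrays 4.59, 4.59 and 4.57. The knockdown values reached into both control ranges. Its differences were −0.12 against *bam*-Gal4 (95% interval −0.28 to 0.05, adjusted p = 0.321) and 0.07 against undriven (−0.10 to 0.24, adjusted p = 0.552), both far smaller in size than the −2.05 and −1.94 of *Adgf-E*. *AdoR* lay low on the arrays (mean 4.67), and whether its probe set could show a step of that size was not tested. The controls did not overlap, with *bam*-Gal4 higher by 0.19 (adjusted p = 0.361).

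Over the 7 members other than *Adgf-E*, 2 were lower (*Adgf-A2*, *Adgf-B*), 1 was higher (*Adgf-A*) and 4 did not pass against *bam*-Gal4, where 8.07% of all probe sets were lower and 10.6% higher by adjusted p. Against undriven 2 were lower, 0 were higher and 5 did not pass, beside 9.1% lower and 9.96% higher of all probe sets. There 3 members had an unadjusted p under 0.05 in limma, a share not counted over all probe sets. With the fold limit added 0 of the 7 passed in either comparison, beside 1.29% and 1.26% of all probe sets. The median difference of the 7 was −0.18 and −0.13, and that of all probe sets −0.02 and −0.03. Lower against both controls at once were 2 of 7, beside 5.88% of all probe sets. The knockdown arrays lay below all 6 controls without overlap for 3 of 7 (*Ada*, *Adgf-A2*, *Adgf-B*), beside 11.5% of all probe sets, and above them for 0, beside 12.2%. Between the controls 1 of the 8 genes, *Adgf-A*, passed, with a lower level in *bam*-Gal4, beside 1.21% lower and 0.865% higher of all probe sets. With so few genes these shares are counts only.

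**Figure D2:**
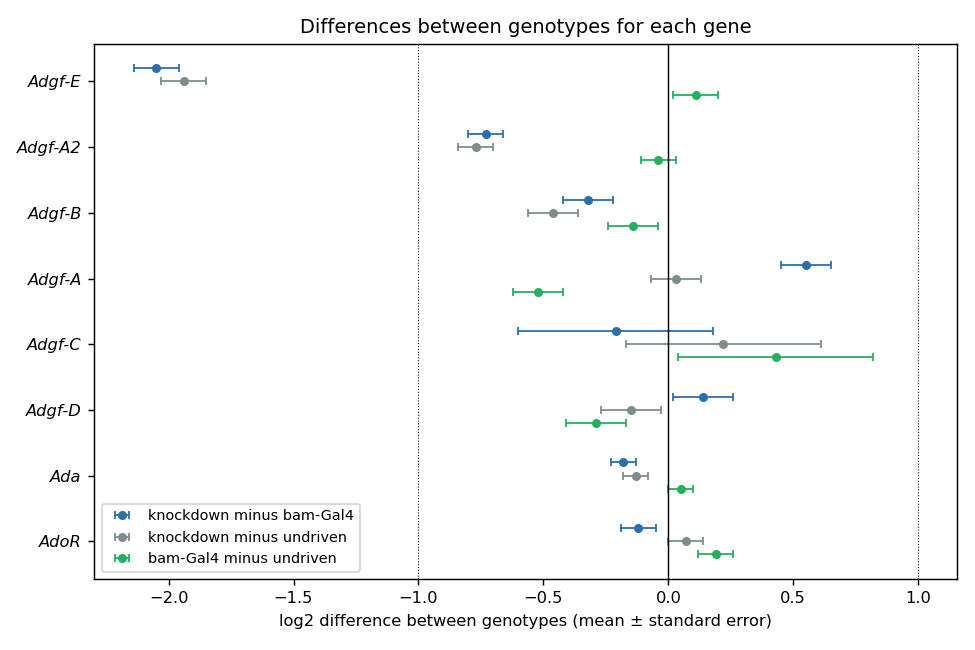
Log2 difference between genotypes (x axis) for each gene (y axis). Points are differences of means of 3 arrays, bars are standard errors of the limma fit, and dotted lines mark the fold limit of 1. *Adgf-E* alone lies beyond the limit, at −2.05 and −1.94, *Adgf-A2* and *Adgf-B* lie below 0 against both controls, and *Adgf-A* differs from *bam*-Gal4 in both the knockdown and undriven testes.

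The profile of *Adgf-E* over the 9 arrays was set against that of every other probe set with a single gene symbol (13645). The measure was the root mean square difference after each profile was centred on its own mean, so a small value means the same steps between arrays. It is a description, since the same arrays chose *Adgf-E*. Of the other members, *Adgf-A2* came closest (0.594, rank 168), followed by *Adgf-B* (0.764, rank 795) and *Ada* (0.872, rank 2748). *AdoR* ranked 5838 (0.935), *Adgf-D* 7458 (0.964), *Adgf-C* 11729 (1.093) and *Adgf-A* 12075 (1.116). Many genes of other families were thus closer to *Adgf-E* than any other member.

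The 6 closest profiles belonged to *CG33233* (3L, 0.199), *Gr93d* (3R, 0.222), *CG13947* (2L, 0.240), *CG12645* (X, 0.246), *TbCMF46* (2L, 0.257) and *CG12506* (2L, 0.265). *CG33233* read 8.98, 8.70 and 8.79 in the knockdown, 10.59, 10.26 and 10.51 in *bam*-Gal4, and 10.62, 10.36 and 10.29 in undriven testes, differences of −1.63 and −1.60. *Gr93d*, named as a gustatory receptor gene, read 3.72, 3.67 and 4.06, then 5.53, 5.49 and 5.45, then 5.37, 5.53 and 5.36 in the same order. Its knockdown arrays all lay below its controls, as those of *Adgf-E* did. The differences of the other 4 were −1.84 and −1.86 for *CG13947*, −1.53 and −1.63 for *CG12645*, −1.63 and −2.08 for *TbCMF46*, and −1.73 and −1.83 for *CG12506*. For *CG13947* and *CG12506* knockdown replicate 1 stood above the other knockdown arrays, at 9.08 against 8.21 and 8.19 and at 10.90 against 10.02 and 10.08. In *Adgf-E* replicate 1 was also the highest knockdown array, by a much smaller step, at 8.06 against 7.91 and 7.90. Without 1 array, 4 or 5 of these 6 genes were still among the closest 6.

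**Figure D3:**
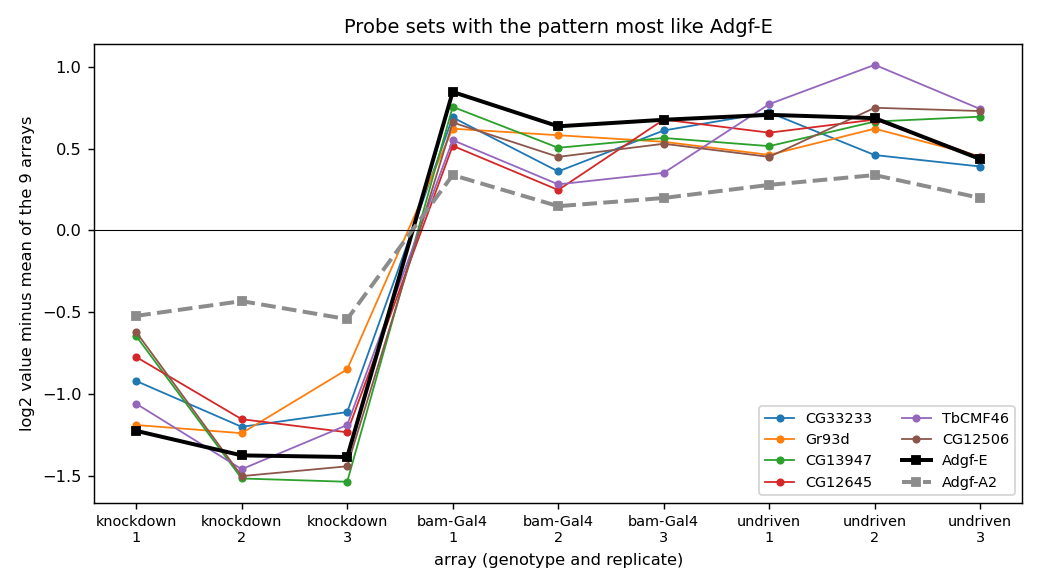
Log2 value minus the probe set's own mean of the 9 arrays (y axis) on each array (x axis), for *Adgf-E* (black), the 6 probe sets with the most similar profile (colours) and *Adgf-A2* (dashed). Lines only join points of a gene. The step between knockdown and control arrays runs the same way in *Adgf-A2* as in *Adgf-E* and is smaller. Between these genes the order of arrays within a genotype is the same in *bam*-Gal4 and differs in knockdown and undriven testes.

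The genes around *Adgf-E* on 2R were measured to see whether neighbours moved with it. In chromosomal order the 3 nearest measured genes on either side were *Had2*, *CG12862* and *CG10139*, then *CG12861*, *CG12860* and *Targ*. The adjacent *CG10139* had means of 9.16, 9.12 and 9.14 in knockdown, *bam*-Gal4 and undriven testes, differences of 0.04 (adjusted p = 0.713) and 0.02 (adjusted p = 0.867). *CG12861*, adjacent on the other side, had means of 13.82, 13.72 and 13.75, differences of 0.11 (adjusted p = 0.258) and 0.07 (adjusted p = 0.454). The difference of *CG10139*, whose values of 9.02 to 9.23 lie inside the range that *Adgf-E* spans, was far smaller than that of *Adgf-E*. *CG12861* and *CG12860* lay near the highest value on the arrays (14.53) and *CG12862* (mean 4.78) near the low end (2.5), and whether their probe sets could show a step of that size was not tested. Among the others, *CG12860* differed by −0.01 and −0.05, *CG12862* by −0.15 and 0.02 and *Targ* by 0.04 and 0.07, with adjusted p of 0.368 or more.

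Of the 6 neighbours, 1 was lower against *bam*-Gal4 and 0 against undriven by adjusted p, beside 8.07% and 9.1% of all probe sets. It was *Had2*, with 6.73, 6.56 and 6.74 in the knockdown, 6.96, 7.08 and 6.94 in *bam*-Gal4, and 6.72, 6.73 and 6.54 in undriven testes. The knockdown overlapped the undriven control, and *bam*-Gal4 stood above both. Its difference of −0.32 against *bam*-Gal4 (SE 0.08, adjusted p = 0.0239) was lost in 5 of 17 alternatives, among them those without knockdown replicate 2 (adjusted p = 0.0792), without *bam*-Gal4 replicate 2 (0.082) or 3 (0.0509), and without the 3 arrays high in other tissues (0.085). Against undriven it was 0.01 (adjusted p = 0.928).

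**Figure D4:**
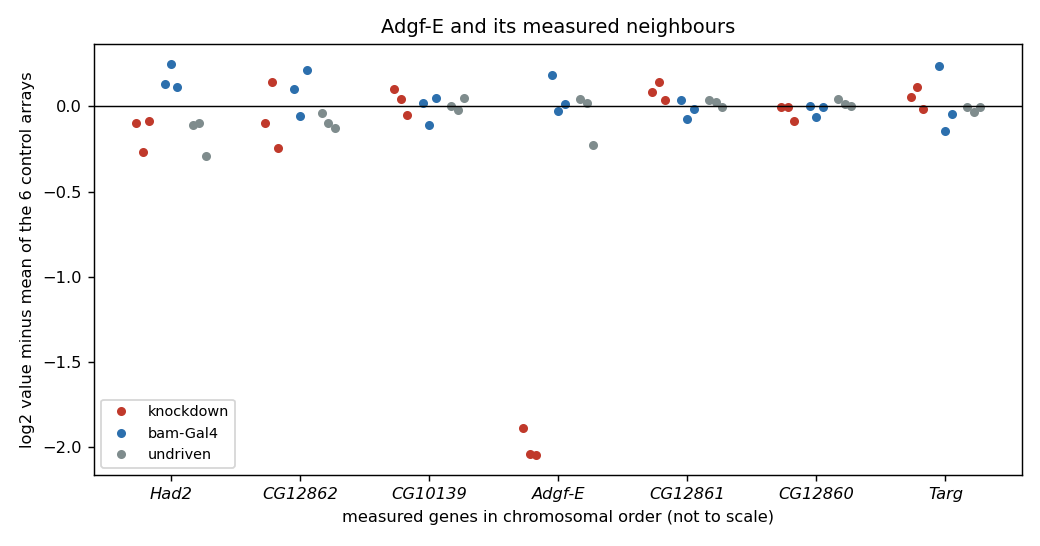
Log2 value minus the mean of the 6 control arrays (y axis) for *Adgf-E* and its 3 nearest measured genes on each side, in chromosomal order and not to scale (x axis). Each point is an array. The knockdown points of *Adgf-E* lie between −2.05 and −1.89, while the points of the neighbours stay near 0.

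Genes that make, move, use and respond to adenosine were compared in the same way. Their lists were chosen with earlier results of these data known. Of 39 listed genes 32 were measured. Lower against both controls by adjusted p were 4 (12.5%), and higher against both were 0, beside 5.88% and 7.19% of all probe sets. Against *bam*-Gal4 5 were lower and 2 higher, beside 8.07% and 10.6%, and against undriven 5 were lower and 0 higher, beside 9.1% and 9.96%. In each comparison 11 of the 32 had an unadjusted p under 0.05 in limma. The share of all probe sets under that limit was not counted, so this is a count only. With the fold limit 0 passed, beside 1.29% and 1.26% of all probe sets. The median difference of the 32 was −0.04 and −0.10.

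The list of purine breakdown, the route that inosine from deaminases enters, held 2 of these 4 genes among 4 measured of 5, beside 5.88% of all probe sets lower against both controls. Only *CG18128* of the 2 passed in every alternative. *CG18128*, a purine nucleoside phosphorylase gene by sequence, read 8.94, 8.83 and 8.82 in the knockdown, 9.64, 9.52 and 9.59 in *bam*-Gal4, and 9.76, 9.75 and 9.63 in undriven testes. Its knockdown arrays stayed 0.58 or more below all controls. The differences of −0.72 (SE 0.07, adjusted p = 1.47e-04) and −0.85 (SE 0.07, adjusted p = 6.29e-05) were close in size to those of *Adgf-A2* and passed in all 17 alternatives. *CG16758*, the other measured phosphorylase gene, differed by −0.04 (adjusted p = 0.883) and −0.10 (adjusted p = 0.627).

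*mal* encodes the enzyme that activates the molybdenum cofactor of xanthine dehydrogenase. It read 5.84, 5.82 and 5.80 in the knockdown, 6.02, 6.05 and 5.98 in *bam*-Gal4, and 6.41, 6.32 and 6.39 in undriven testes. The 3 genotypes were separate, with *bam*-Gal4 between the others and lower than undriven (−0.36, adjusted p = 0.0108). The difference against undriven was −0.55 (adjusted p = 2.27e-04) and held in every alternative. That against *bam*-Gal4, −0.20 (adjusted p = 0.0373), was lost in 11 of 17, with adjusted p of 0.0555 to 0.263, among them each fit without a knockdown or *bam*-Gal4 array, without undriven replicate 3 and without the 3 arrays high in other tissues. *ry*, which encodes xanthine dehydrogenase itself, differed by −0.12 (adjusted p = 0.573) and −0.27 (adjusted p = 0.196).

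Adenosine production took in 8 measured genes of 8, of which 2 were lower against *bam*-Gal4 and 1, *CG30103*, a 5′-nucleotidase gene by sequence, against both. Of all probe sets 8.07% were lower against *bam*-Gal4 and 5.88% against both controls. *CG30103* read 9.29, 9.54 and 9.28 in the knockdown, 10.03, 9.73 and 9.73 in *bam*-Gal4, and 9.87, 9.83 and 9.69 in undriven testes, without overlap. The differences were −0.46 (adjusted p = 0.0153) and −0.43 (adjusted p = 0.0219). They were lost without knockdown replicate 1 (0.0568 and 0.074), without replicate 3 (0.0537 and 0.0727) and without the 3 arrays high in other tissues (0.0747 and 0.0854), and that against undriven also without undriven replicate 1 (0.0745) or 2 (0.0691). Its relative *veil*, named after its values were seen, was lower against *bam*-Gal4 (−0.42, adjusted p = 0.0292) and stood at −0.22 against undriven (adjusted p = 0.207). The former was lost in 5 of 17 alternatives, among them those without knockdown replicate 1 (0.08) or 2 (0.0929) and without *bam*-Gal4 replicate 2 (0.0853) or 3 (0.0998), and the latter passed without undriven replicate 3 (−0.34, adjusted p = 0.0439).

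**Figure D5:**
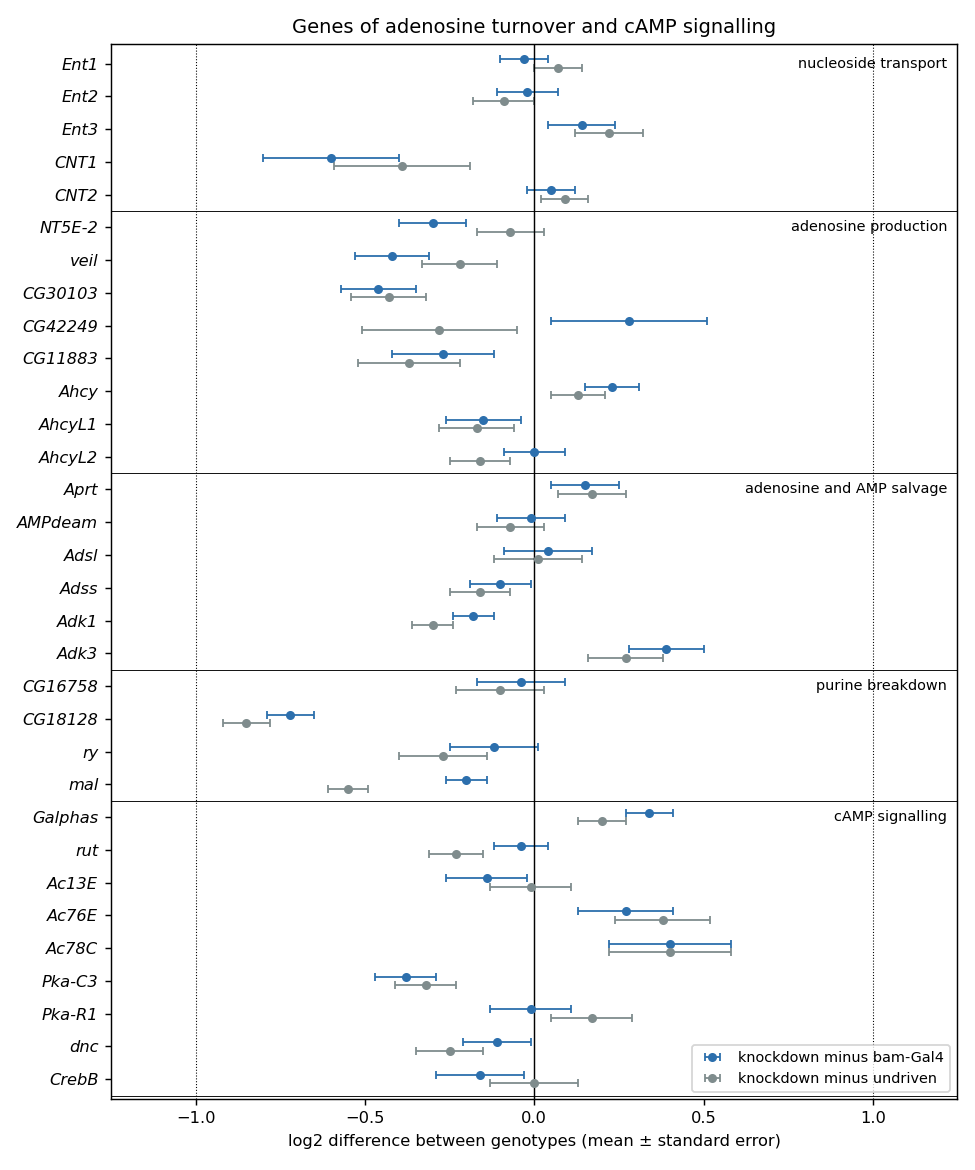
Log2 difference of the knockdown from each control (x axis) for the 32 measured genes of 5 lists (y axis). Points are differences of means of 3 arrays, bars are standard errors and dotted lines mark the fold limit of 1. All genes lie within the limit, *CG18128* having the largest steps at −0.72 and −0.85.

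Among the genes of the receptor's pathway, cAMP signalling, 9 of 13 were measured and 1 was lower against both controls, beside 5.88% of all probe sets. It was *Pka-C3*, which encodes a catalytic subunit of the kinase that cAMP activates. *Pka-C3* read 10.26, 10.33 and 10.32 in the knockdown, 10.84, 10.63 and 10.57 in *bam*-Gal4, and 10.49, 10.70 and 10.67 in undriven testes. The knockdown lay under all controls, by −0.38 (adjusted p = 0.015) and −0.32 (adjusted p = 0.0326). The difference from *bam*-Gal4 was lost without knockdown replicate 1 (0.0532) and without the 3 arrays high in other tissues (0.0871). The difference from undriven was lost in 7 of 17 alternatives, among them each fit without a knockdown replicate or without undriven replicate 2 or 3, with adjusted p of 0.0657 to 0.176. *Galphas*, the gene of the stimulatory G protein subunit, named after its values were seen, was higher against *bam*-Gal4 by 0.34 (adjusted p = 0.00708) and stood at 0.20 against undriven (adjusted p = 0.0657). The former was lost without the 3 arrays high in other tissues (0.0811), and the latter passed in 4 of 17 alternatives, with renewed quantile normalization (0.28, adjusted p = 0.00909), with dim probe sets left out (0.0391), with the trended and robust fit (0.0302) and without *bam*-Gal4 replicate 1 (0.0371).

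The remaining lists held no gene that passed against both controls, beside 5.88% lower and 7.19% higher of all probe sets. In adenosine and AMP salvage 6 of 8 genes were measured. *Adk1*, an adenosine kinase gene, was lower in the knockdown than in undriven testes (−0.30, adjusted p = 0.0113), a call lost without the 3 arrays high in other tissues (0.0681), while its difference from *bam*-Gal4 was −0.18 (adjusted p = 0.0796) and passed in 3 of 17 alternatives (0.0318 to 0.0473). *AMPdeam*, the AMP deaminase gene, differed by −0.01 (adjusted p = 0.943) and −0.07 (adjusted p = 0.675). *Adk3*, named after its values were seen, was higher against *bam*-Gal4 by 0.39 (adjusted p = 0.0399) and differed from undriven by 0.27 (adjusted p = 0.139). The former was lost in 8 of 16 alternatives, among them each fit without a knockdown array, without *bam*-Gal4 replicate 2 or 3 and without undriven replicate 1, and the latter passed without undriven replicate 3 (adjusted p = 0.0262). All 5 listed nucleoside transporters were measured and 0 passed in either comparison. Over all probe sets 8.07% were lower and 10.6% higher against *bam*-Gal4, and 9.1% and 9.96% against undriven. Of the 5, 1 and 0 had an unadjusted p under 0.05 in limma, a share not counted over all probe sets. The concentrative transporter *CNT1* differed by −0.60 (adjusted p = 0.0712) and −0.39 (adjusted p = 0.222), and the former passed in 4 of 17 alternatives (adjusted p of 0.0224 to 0.0386), among them the fit without undriven replicate 1. The equilibrative transporter *Ent1* differed by −0.03 (adjusted p = 0.82) and 0.07 (adjusted p = 0.565).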

How the data were processed

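The authors deposited log2 expression values per probe set and array, made with affy and RMA (background correction, quantile normalization and summary over the probes). For a comparison with published arrays the methods describe an RMA run over all data sets jointly. The tool versions, and whether that run gave the deposited values, were not given in the sources used here. Neither scanned arrays nor a genome sequence was used. Names came from the platform annotation (14049 probe sets, 13646 with 1 symbol), updated through RefSeq (Release 6 plus ISO1 MT, 13543 matched).

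From these values, differences were tested with limma 3.58.1 in R 4.3.3 (lmFit, eBayes) in 1 fit with a mean for each genotype over the 9 arrays (6 residual degrees of freedom), after a check on simulated data, and adjusted by Benjamini-Hochberg over 18952 probe sets. Genes passed at an adjusted p under 0.05; the study's fold limit (log2 difference of 1) was counted separately. No filter on low values was applied. For arrays, their number limits the precision.

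The members and lists were chosen with earlier results of these data known. Named are all members, pathway genes passing against both controls in 1 direction (at most 4 per list, otherwise the 2 with the highest mean), the 3 neighbours on each side, the 6 closest profiles and *tbrd-2*. A gene outside the members with several probe sets was represented by the brightest. Alternatives were the replicate block, the 6 arrays of a comparison, renewed quantile normalization, median centring, a mean of at least 6, trended and robust eBayes, array weights, leaving out each array, and leaving out 3 arrays high in seminal fluid or gut transcripts. Figures were drawn with matplotlib 3.10.9.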

Additional observations from a re-analysis of the deposited data

How the results depend on the processing

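No difference that passed turned its direction. Of the differences that did not pass, 48 values in 20 of 98 gene comparisons changed sign, all with a size of at most 0.22 at first, among them *Adgf-C* against *bam*-Gal4 (−0.64 to 0.14) and undriven (−0.11 to 0.47) and *Adgf-A* against undriven (−0.08 to 0.11). *Adgf-E* stayed between −2.10 and −1.98 against *bam*-Gal4 and between −2.02 and −1.89 against undriven over all alternatives run. The other members lower against *bam*-Gal4 (2) became 1 with the 6 arrays of the comparison and 1 without the 3 arrays high in other tissues, and 1 to 2 when each array was left out. They became 3 with renewed quantile normalization, median centring, a mean of at least 6 and array weights, where *Ada* passed. *Adgf-A2* was kept in each. The member lower in *bam*-Gal4 than in undriven (1) became 0 with the replicate block and 0 without the 3 arrays, and 0 to 1 when each array was left out. The neighbour lower against *bam*-Gal4 (1) became 0, 0 and 0 to 1 in the same settings. Pathway genes lower against both controls (4) became 2 with the replicate block, 1 without the 3 arrays, and 1 to 3 when each array was left out, and 5 with a mean of at least 6 and with array weights. Those higher against both (0) became 1 with renewed quantile normalization, 1 with a mean of at least 6, 1 with the trended and robust fit, and 0 to 1 when each array was left out. Deviations from the genotype means correlated from −0.584 to 0.333 between same-numbered arrays of different genotypes. Between differently numbered arrays they correlated from −0.515 to 0.547, so the numbers were not taken as pairs. The replicate block left the members called against either control at 2 lower. The cause of these shifts was not tested. For single genes, 1532 of 1629 values kept their side of the threshold, 66 fell short of it and 31 passed it.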

Other observations

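Genes of de novo purine synthesis, a list chosen after seeing the data, were set beside the adenosine genes. Of 11 listed, 9 were measured. *Pfas*, which encodes an enzyme of this route, was the 1 gene lower against both controls (11.1%, beside 5.88% of all probe sets). It read 7.05, 6.96 and 7.02 in the knockdown, 7.28, 7.32 and 7.29 in *bam*-Gal4, and 7.48, 7.43 and 7.22 in undriven testes, differences of −0.29 (adjusted p = 0.027) and −0.37 (adjusted p = 0.00876). *Paics* was higher against undriven by 0.45 (adjusted p = 0.047) and differed from *bam*-Gal4 by 0.22 (adjusted p = 0.325). *Prat*, the gene of the first committed step, differed by −0.01 (adjusted p = 0.93) and −0.09 (adjusted p = 0.462). It was 1 of the 7 genes that passed in neither comparison. *Adsl* and *Adss*, also among those, belong to the salvage list too. Under the same 17 alternatives *Pfas* passed in all against undriven and in 10 against *bam*-Gal4, where it was lost without each knockdown or *bam*-Gal4 array and without the 3 arrays high in other tissues (adjusted p up to 0.0846). *Paics* passed in 6 against undriven.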
